A study of Homo sapiens with 5 samples.

Results

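Low-cycling SW480 cells are the tumor cells that held the fewest transcripts of the DNA replication and mitosis machinery when single cells were taken from zebrafish xenografts. They were selected on measured values. Each cell received a score, the summed molecules of 13 cell cycle genes (MCM2 to MCM7, PCNA, TYMS, RRM2, TOP2A, MKI67, CENPF and UBE2C) per 10000 molecules of human genes, and cells under the 40th percentile of all plates pooled were kept. This gave 330 of 826 cells, 243 from 1 day post injection (1 dpi) and 87 from 4 dpi, and the other 496 cells are called the remaining cells. The cell line SW480 is a human colorectal cancer line whose cells carry GFP, and all samples share this line, the transfection and the zebrafish embryo as host. Tumors were pooled, dissociated and sorted as live single cells into wells, and the RNA of each well was counted by SORT-seq as unique molecular identifiers (UMIs), which count RNA molecules. Libraries 6, 7 and 8 were plates of 1 dpi, and libraries 10 and 11 were plates of 4 dpi. No further treatment or genotype separates the groups, and the sources do not say if plates of the same time point came from different pools of tumors, so that p-values measure the spread between plates, which may be technical.

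A cell that leaves the cycle stops making the MCM helicase, PCNA and the enzymes of nucleotide supply, and a cell in G1 holds little of the mitotic RNA of CENPF or UBE2C. In the colon, Notch signaling through HES1 keeps progenitors from the secretory fate, and Wnt signaling through LGR and ASCL2 genes maintains stem cells. Low-cycling cells of such tumors can be in G1, resting or differentiating, and the score does not tell these apart.

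Low-cycling cells made up 46.1%, 41.5% and 48.5% of the cells on libraries 6, 7 and 8, and 26.5% and 32.3% on libraries 10 and 11. The plates of both time points did not overlap, and the mean share fell from 45.4% ± 3.51 (SD, n = 3) to 29.4% ± 4.09 (SD, n = 2), a difference of -15.9 percentage points. An exact two-sided permutation test over plates gave p = 0.1, the smallest that 3 against 2 plates allow. Libraries 6, 7 and 10 shared a code in the names of their deposited counts, and libraries 8 and 11 shared another. This code was taken as the flow cell of sequencing, which the sample titles do not give. Within both flow cells so defined, the share was lower at 4 dpi (libraries 6 and 7 against 10, and 8 against 11).

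The median low-cycling cell held 23910, 29893 and 21023 UMIs on libraries 6, 7 and 8, and 23290 and 16786.5 on libraries 10 and 11. These depths overlapped between time points (exact permutation p = 0.4), whereas the remaining cells held more at 1 dpi, between 34115.5 and 38943 against 21589 to 26487 at 4 dpi. Mitochondrial genes took a median of 13.1%, 10.8% and 9.48% of the UMIs of a low-cycling cell at 1 dpi and 9.03% and 9.49% at 4 dpi (exact permutation p = 0.3). The share of ERCC spike-in RNA was 1.05%, 0.864% and 2.08% at 1 dpi against 1.20% and 2.41% at 4 dpi (exact permutation p = 0.5), and it was higher on libraries 8 and 11, which shared a flow cell. Whether spike-in share has a part in the gene results was not tested. For depth, cells were thinned to 5000 UMIs each. Of the 1087 genes called below, 808 were then tested, 252 passed and 799 kept the direction of change. Thinning also leaves fewer UMIs, so a lost call does not give the part of depth.

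**Figure D1:**
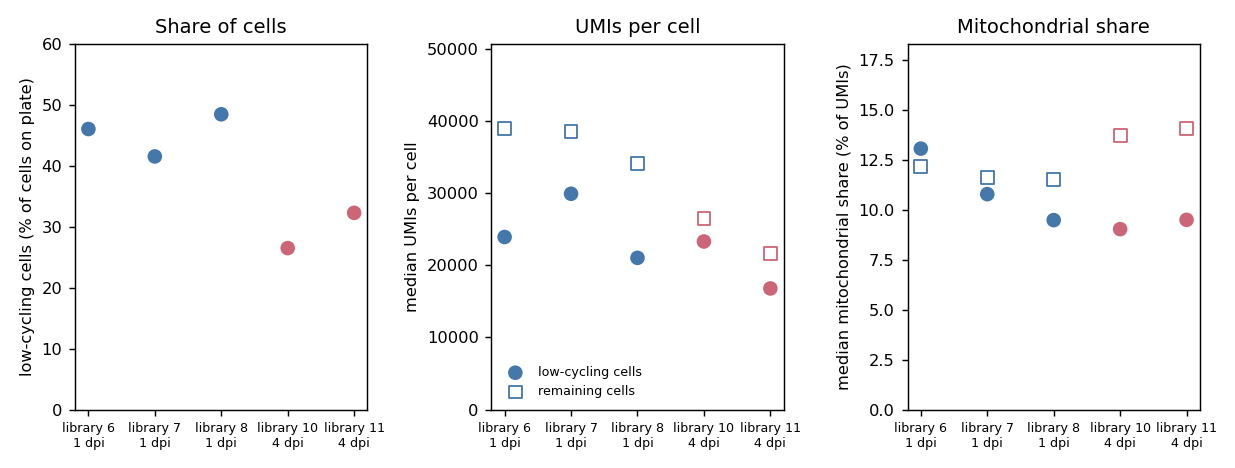
Each point is 1 plate, with blue for 1 dpi and red for 4 dpi, and the panels show low-cycling cells in percent of the cells on the plate, the median number of UMIs per cell and the median mitochondrial share in percent of UMIs. Filled circles are low-cycling cells and open squares are remaining cells, and the 3 plates of 1 dpi lie above both plates of 4 dpi in the share of low-cycling cells, between 41.5% and 48.5% against 26.5% and 32.3%.

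The cut lay at a score of 6.37 per 10000 UMIs, with the nearest cell below it at 6.33, the nearest above at 6.37, 30 cells within 10% below and 28 within 10% above. A low-cycling cell held a median of 8 UMIs of the 13 genes and a remaining cell 43, so that the class is a range of a score and not a cell type. Within the class, the cut limited the sum of the score genes and not each gene alone, and their values are a description. MCM7, a subunit of the replicative helicase, had 152, 157 and 156 CPM (UMIs scaled to the same total in each sum of cells, with TMM factors) on the plates of 1 dpi and 152 and 169 at 4 dpi. PCNA, the sliding clamp of DNA polymerase, had 89.5, 74.9 and 89.9 against 56.5 and 71.9 CPM. UBE2C, a ubiquitin-conjugating enzyme of mitotic exit, had 18.2, 21.9 and 14.6 against 5.13 and 5.32. MKI67, the proliferation marker, had 6.07, 7.49 and 4.16 against 4.11 and 12.4. Of 12 score genes tested UBE2C alone passed the test (log2 change -1.79 ± 0.43 SE, edgeR adjusted p = 0.0146). Cycle genes that the score did not hold are tied to it through the choice of cells, in both classes, so their sums are a description as well. In low-cycling cells they were at like summed levels at both time points. All sums over lists are CPM without TMM factors. The 55 other S-phase genes summed to 1051, 1054 and 984 CPM at 1 dpi and 1041 and 989 at 4 dpi, and the 71 other G2 and mitosis genes to 1374, 1436 and 1417 against 1368 and 1550. In the remaining cells the same 71 genes summed to between 3767 and 4395 CPM at 1 dpi and to 6177 and 6391 at 4 dpi.

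The colon epithelial label held in these cells. The 13 colon epithelial identity markers in the filtered genes, among them the keratins KRT8 and KRT18 and the adhesion protein EPCAM, summed to between 4977 and 6030 CPM at 1 dpi and to 5885 and 6458 at 4 dpi. Of 20 leukocyte markers 11 were listed in the files, and their 77, 73 and 95 UMIs on the plates of 1 dpi and 19 and 15 at 4 dpi were a small part of between 936504 and 2661239 UMIs per plate. PTPRC, the defining surface antigen of leukocytes, had 0 UMIs on 4 plates and 2 on library 10. Of 19 erythroid, endothelial and stromal markers 5 were listed, with 78, 67 and 70 UMIs at 1 dpi and 63 and 42 at 4 dpi. Scaled to the UMIs of each plate, these 5 summed to 29.3, 33.7 and 35.8 CPM against 67.4 and 37.8. Both plates of 4 dpi were thus above those of 1 dpi, library 11 by little. COL1A1, the collagen chain of stromal cells, rose from 3.04, 4.28 and 2.08 CPM to 24.6 and 15.1 (log2 change 2.63 ± 0.46 SE, edgeR adjusted p = 0.00212), and ITGAM, a leukocyte integrin, fell from 6.83, 12.3 and 11.4 CPM to 2.05 and 2.66. The call of ITGAM was lost without library 7, 8, 10 or 11. The part of such cells in the results below was not tested.

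Between 1 and 4 dpi, 545 genes rose and 542 fell in low-cycling cells of 11028 tested (edgeR quasi-likelihood test on UMIs summed per plate, adjusted p under 0.05), which is 4.94% and 4.91% of the genes, 9.86% in all. The median log2 change over all genes was 0.01. In a fit with fewer plates the numbers were smaller, with 292 and 289 calls without library 8, 305 and 301 without library 10 and 156 and 206 without library 11. Of the 1087 genes called, 1086 had plates of 1 dpi and 4 dpi that did not overlap, while 44.3% of all genes tested did not overlap. With the flow cell as a term, 489 genes rose and 495 fell, and 925 of the 1087 were called again. A sum of cells alone does not tell fewer cells that express a gene from less RNA of it per cell. HES5, described below, was detected in 25.7%, 37.3% and 21.5% of low-cycling cells at 1 dpi and 2.86% and 1.92% at 4 dpi. PRSS2 went from 7.62%, 5.08% and 5.06% of these cells to 28.6% and 36.5%. For DNAJB1, which fell, the shares overlapped, with 86.7%, 98.3% and 87.3% against 97.1% and 82.7%. The share of cells with the gene thus changed for HES5 and PRSS2. The part of depth in detection was not tested. In the remaining cells, 1406 genes rose (12.0%) and 1298 fell (11.1%) of 11682 tested, on sums of more cells and UMIs.

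PRSS2 (chromosome 7), a trypsinogen, had 7.97, 5.35 and 2.60 CPM in low-cycling cells at 1 dpi and 166 and 249 at 4 dpi. It rose the most of all genes named by the rule, with a log2 change of 5.21 ± 0.27 (SE, edgeR adjusted p = 1.95e-09), and because near-identical trypsinogen copies exist, its reads could belong in part to another of them. VIM (chromosome 10), the intermediate filament of mesenchymal cells, went from 16.7, 25.7 and 9.88 CPM to 83.1 and 151 (log2 change 2.76 ± 0.28, edgeR adjusted p = 2.10e-05). PCDH19 (chromosome X), a protocadherin, went from 12.1, 13.9 and 12.997 to 101 and 65.6 CPM, and PHGR1 (chromosome 15), a protein of the gastrointestinal epithelium, from 25.4, 46.5 and 29.1 to 153 and 177 CPM. These 4 genes were at 4 dpi above every plate of 1 dpi. PCP4 (chromosome 21), a calmodulin-binding protein, rose by 2.21 ± 0.30, RNF39 (chromosome 6) by 2.23 ± 0.41, CABYR (chromosome 18) by 2.28 ± 0.47 and NIPBL-AS1 (chromosome 5) by 2.58 ± 0.47 on the log2 scale. The calls of CABYR and NIPBL-AS1 were lost without library 10, and the antisense gene cannot be told apart from its partner unless the counting used strand, which the sources used here do not give.

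HES5 (chromosome 1), a transcription factor made in response to Notch, had 127, 149 and 116 CPM at 1 dpi and 1.03 and 4.44 at 4 dpi, which is 836 UMIs against 6. Its log2 change of -5.48 ± 0.35 (SE, edgeR adjusted p = 2.07e-08) was the largest fall among the genes the rule names, and the ratio of pooled UMIs was 43.2 with an exact 95% interval from 19.8 to 118 that covers counting error only. MT1G (chromosome 16), a metallothionein that binds zinc, had 81.6, 8.02 and 33.8 CPM against 2.05 and 1.77, and the call was lost without library 10 or 11. CD83 (chromosome 6), a surface protein that NF-kB turns on, went from 21.6, 45.5 and 30.2 to 2.05 and 7.98 CPM, and BCL3 (chromosome 19), a nuclear partner of NF-kB, from 97.1, 84.0 and 48.9 to 12.3 and 13.3 CPM. ID1 (chromosome 20), an inhibitor of differentiation factors, went from 408, 211 and 279 to 63.6 and 58.5 CPM. All 5 falls left both plates of 4 dpi under every plate of 1 dpi.

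Some Notch target genes, HES5 and HES1 foremost, fell in low-cycling cells. When a ligand on a neighboring cell binds a Notch receptor, the released intracellular part joins the DNA-binding protein CSL and turns on HES and HEY repressors, NRARP and DTX genes. Of 19 tested members of the list, 8 fell (42.1%) and 1 rose, with a median log2 change of -0.62, while 4.91% of all genes fell. In the remaining cells 11 of 21 fell and 4 rose, beside 11.1% and 12.0% of all genes there. The difference between the classes passed the test for HES6 alone, so the falls were not particular to low-cycling cells. The values that follow are of low-cycling cells. HES1 (chromosome 3), the repressor of the secretory fate, had 583, 929 and 824 CPM at 1 dpi and 85.2 and 84.3 at 4 dpi. The fall was 3.20 ± 0.20 on the log2 scale (edgeR adjusted p = 2.07e-08), and no plate of 4 dpi came near one of 1 dpi. HEYL (chromosome 1), a HES-related repressor, went from 19.7, 26.2 and 30.7 to 3.08 and 2.66 CPM, and NRARP, a feedback inhibitor of the receptor, from 97.9, 84.0 and 97.2 to 19.5 and 35.5 CPM. DTX4, a ubiquitin ligase of the pathway, went from 9.49, 6.95 and 11.4 to 1.03 and 1.77 CPM. ID1, with the values given above, also counts among the members that fell. SOX9 and MYC, which other pathways also drive, fell by 0.62 ± 0.16 and 0.61 ± 0.15 on the log2 scale, and the call of MYC was lost without library 8, 10 or 11. HES6, which counteracts HES1, was the member that rose, from 29.6, 34.8 and 32.2 to 54.4 and 55.0 CPM (log2 change 0.77 ± 0.20, edgeR adjusted p = 0.0237), a call lost without library 6, 8, 10 or 11. HES4 had 33.4, 60.4 and 68.1 CPM against 34.9 and 23.9 and missed the threshold (edgeR adjusted p = 0.076). HEY1 had too few UMIs to be tested, 31, 10 and 5 at 1 dpi and 4 and 2 at 4 dpi, and so had the receptor NOTCH3 with 6, 4 and 12 against 2 and 1. Without library 8 or 11 the number of falls was 5.

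**Figure D2:**
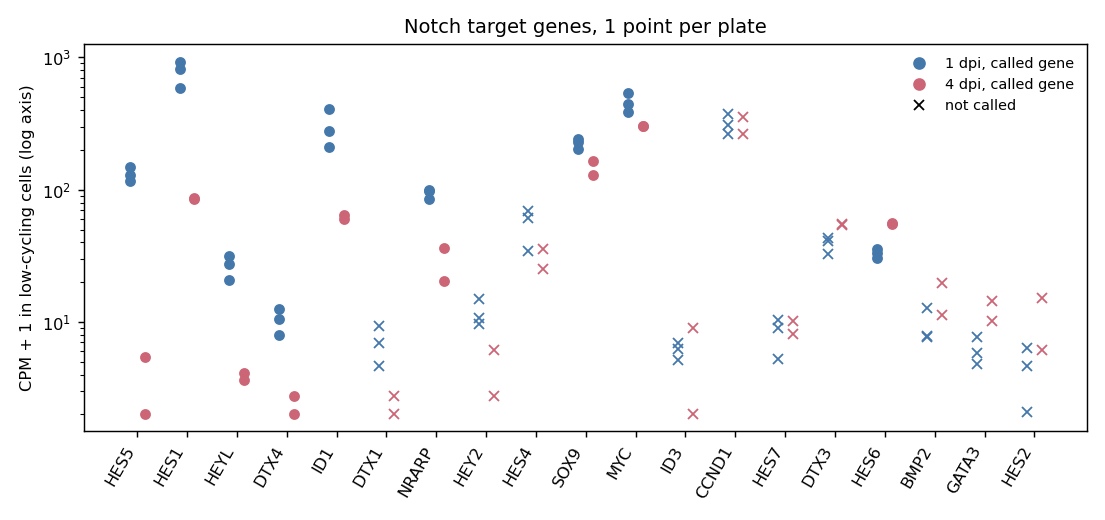
The plot shows CPM plus 1 in low-cycling cells on a log axis for the 19 tested Notch target genes, 1 point per plate, ordered by log2 change, with blue for 1 dpi and red for 4 dpi. Circles are genes with an adjusted p under 0.05 and crosses are the others, and HES5, HES1, HEYL and DTX4 at the left have both plates of 4 dpi far under the 3 plates of 1 dpi.

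Of 39 tested receptors, ligands and parts of the machinery that send and receive the signal, 1 rose (2.56%) and 0 fell, beside 4.94% and 4.91% of all genes, with a median log2 change of 0.11. PSENEN, a subunit of the gamma-secretase that cuts the receptor, rose from 56.9, 62.0 and 55.6 to 103 and 104 CPM (log2 change 0.83 ± 0.16, edgeR adjusted p = 0.00447). NOTCH1 had 39.5, 20.3 and 28.6 CPM at 1 dpi and 42.1 and 28.4 at 4 dpi, and JAG1, a ligand, had 23.9, 33.2 and 26.5 against 18.5 and 19.5, and both missed the threshold.

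The promoters of HES1, HES5 and HEYL, the HES and HEY genes with the largest falls, are shown because CSL recognises a short core, TGGGAA, or TTCCCA on the other strand. Windows run from 250 bases before to 50 bases after the start of the gene (RefSeq, GRCh38.p14), each on the strand of the gene from 5′ to 3′, with matches to either form of the core in capitals. The windows are chr3:194135898-194136197 (plus strand) for HES1, chr1:2530214-2530513 (minus strand) for HES5 and chr1:39639594-39639893 (minus strand) for HEYL.
HES1: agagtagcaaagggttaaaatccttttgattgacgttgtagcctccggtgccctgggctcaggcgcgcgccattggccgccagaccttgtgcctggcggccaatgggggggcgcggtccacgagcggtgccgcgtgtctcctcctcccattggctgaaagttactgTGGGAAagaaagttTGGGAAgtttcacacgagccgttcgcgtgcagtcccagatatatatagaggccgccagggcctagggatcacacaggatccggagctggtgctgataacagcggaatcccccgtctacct
HES5: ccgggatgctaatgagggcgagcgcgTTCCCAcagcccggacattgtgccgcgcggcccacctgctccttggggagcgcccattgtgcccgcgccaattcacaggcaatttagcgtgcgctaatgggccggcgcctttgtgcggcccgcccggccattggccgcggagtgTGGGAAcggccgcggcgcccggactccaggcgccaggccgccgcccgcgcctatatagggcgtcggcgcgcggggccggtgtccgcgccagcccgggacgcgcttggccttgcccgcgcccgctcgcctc
HEYL: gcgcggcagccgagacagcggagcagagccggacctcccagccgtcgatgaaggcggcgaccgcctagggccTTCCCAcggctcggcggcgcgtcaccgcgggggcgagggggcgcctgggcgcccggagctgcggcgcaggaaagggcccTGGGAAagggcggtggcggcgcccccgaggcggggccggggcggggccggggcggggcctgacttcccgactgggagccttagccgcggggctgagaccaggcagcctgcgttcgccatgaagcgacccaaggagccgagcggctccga
Each window held 2 matches, at -84 and -70 in HES1, -224 and -80 in HES5 and -178 and -99 in HEYL, counted from the start of the gene. Of the 8 Notch target genes that fell, 6 had a promoter in the table and 3 held the core, while 24.0% of 35116 promoters of the same length did. A match describes these letters and is not a site of binding.

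Of the genes of cholesterol and fatty acid synthesis, 12 of 36 tested fell. These enzymes build sterols from acetyl-CoA, and SREBP factors turn on their genes when the sterol of the cell runs low. These falls were 33.3% of the members, and 0 rose, with a median log2 change of -0.39, while 4.91% of all genes fell. STARD4 (chromosome 5), a carrier of cholesterol in the cytosol, had 87.6, 98.9 and 103 CPM at 1 dpi and 14.4 and 17.7 at 4 dpi (log2 change -2.57 ± 0.23, edgeR adjusted p = 3.37e-06). It lay at 4 dpi far under every plate of 1 dpi. Along the pathway, HMGCS1 fell by 1.06 ± 0.23, IDI1 by 1.41 ± 0.21 and MSMO1 by 1.68 ± 0.26 on the log2 scale. CYP51A1, DHCR7, INSIG1, SCD and FADS1 also passed the test. FASN, the fatty acid synthase, stood at 93.0, 71.7 and 84.7 CPM against 81.1 and 90.5 (log2 change 0.04 ± 0.17), and SREBF2, which encodes the sterol-sensing factor, at 60.3, 36.4 and 60.3 against 38.0 and 32.8 (edgeR adjusted p = 0.151). With a plate left out between 8 and 12 members fell. In the remaining cells 16 of 37 fell and 2 rose, and the difference between the classes passed the test for 0 members. A sterol response core, TCACNCCAC or GTGGNGTGA on the other strand, was in 0 of 9 members' promoters of this length and in 1.13% of all promoters.

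Growth signals and stress turn on immediate early genes within minutes. Of 44 tested members 16 fell (36.4%), 2 rose and the others, JUN and ATF3 among them, did not pass the test, with a median log2 change of -0.41, while 4.91% of all genes fell. EGR2, a zinc finger factor, had 57.7, 174 and 125 CPM at 1 dpi and 23.6 and 32.8 at 4 dpi (log2 change -2.04 ± 0.38, edgeR adjusted p = 0.00286). FOS, a subunit of AP-1, had 426, 1158 and 491 CPM against 194 and 374, and EGR1 had 899.6, 1688 and 1138 against 311 and 751. The plates of 4 dpi were under those of 1 dpi for these 3 genes, and library 7 was the highest of all plates. KLF4, an inhibitor of colon cell division, rose from 55.0, 69.5 and 49.4 to 106 and 88.7 CPM. Its log2 change was 0.74 ± 0.19 (edgeR adjusted p = 0.0175), a call lost without library 8 or 10. PPP1R15A, a phosphatase subunit of the stress response, rose by 0.70 ± 0.20. It had 260, 344 and 193 CPM against 342 and 520, so that its plates overlapped between time points. The number of falls was 6 without library 10 and 8 without library 11.

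Subunits and feedback genes of NF-kB were among the genes that fell, which were 4.91% of all genes tested. NF-kB subunits are held in the cytosol by NFKBIA and, once free, turn on their own inhibitors, chemokines and survival genes. Of 31 tested members of the NF-kB and chemokine list 9 fell (29.0%) and 1 rose, none of the falls being a chemokine, with a median log2 change of -0.54, and with a plate left out between 7 and 10 fell. TNFAIP3, a feedback enzyme that shuts the pathway off, had 97.5, 93.6 and 95.7 CPM at 1 dpi and 16.4 and 26.6 at 4 dpi (log2 change -2.13 ± 0.22, edgeR adjusted p = 2.27e-05). BIRC3, an inhibitor of cell death, had 93.3, 183 and 94.1 CPM against 21.6 and 32.8. It was the lowest of 3 death receptor and apoptosis genes that fell, of 32 tested (9.38%). NFKBIA fell by 1.35 ± 0.27, RELB by 1.503 ± 0.21 and NFKB1 by 1.28 ± 0.20 on the log2 scale. PLAU, a secreted protease, had 11.8, 13.4 and 20.3 CPM against 2.05 and 0.887, which is 95 UMIs against 3 and a ratio of 9.82 (exact 95% interval 3.26 to 48.5), and its call was lost without library 11. CXCL8, the neutrophil chemokine, had 11.4, 466 and 39.0 CPM at 1 dpi and 79.0 and 151 at 4 dpi, so that library 7 alone exceeded the rest and no change was detectable. CEBPB rose from 142, 148 and 131 to 233 and 213 CPM (log2 change 0.67 ± 0.14, edgeR adjusted p = 0.00735), a call lost without library 10.

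Heat shock and chaperone genes, which help proteins fold, gave 10 falls (25%) and 0 rises of 40 tested. The median log2 change was -0.18, while 4.91% of all genes fell and 4.94% rose. DNAJB1, a co-chaperone of HSP70, had 388, 504 and 420.1 CPM at 1 dpi and 206 and 208 at 4 dpi (log2 change -1.08 ± 0.15, edgeR adjusted p = 0.000401). HSPA8, the constitutive HSP70, fell by 0.61 ± 0.13, and HSP90B1, the HSP90 of the endoplasmic reticulum, by 0.71 ± 0.13 on the log2 scale. The list summed to 10107, 10512 and 10553 CPM on the plates of 1 dpi and to 8361 and 8413 at 4 dpi. The number of falls was 6 without library 7, 4 without library 8, 2 without library 10 and 4 without library 11. Among 34 genes of the endoplasmic reticulum, 3 rose and 3 fell, with 1 rise without library 7, 8 or 11 and 1 fall without library 8 or 10, and XBP1, the factor of the unfolded protein response, rose from 142, 129 and 145 to 242 and 262 CPM (log2 change 0.86 ± 0.14, edgeR adjusted p = 0.00138).

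Mitochondrially encoded genes, the subunits of the respiratory chain that the organelle's own genome carries, gave 5 falls (38.5%) and 0 rises of 13 tested. Their median log2 change was -0.40, while 4.91% of all genes fell. MT-ATP6, a subunit of the ATP synthase, had 12676, 13994 and 11251 CPM against 8065 and 6891 (log2 change -0.76 ± 0.13, edgeR adjusted p = 0.00158), and MT-CO2, a subunit of cytochrome oxidase, had 11460, 10691 and 10488 against 6485 and 6760. MT-ND1, a subunit of complex I, was at 13034, 14161 and 11496 CPM against 16178 and 16035 and missed the threshold (edgeR adjusted p = 0.0884), so the members did not all move one way. The cells had been kept for a mitochondrial share under 25%, and with a maximum of 15% there were 8 falls. Of 77 nuclear subunits of oxidative phosphorylation 5 rose (6.49%, beside 4.94% of all genes) and 0 fell, with 3 rises without library 6, 8 or 10 and 0 without library 11, among them NDUFB10 of complex I, from 44.0, 58.3 and 54.6 to 89.3 and 93.1 CPM, a call lost without library 11. Of 82 cytosolic ribosomal proteins 6 fell (7.32%) and 0 rose, with a median log2 change of -0.21, and with a plate left out between 1 (library 10) and 9 (library 6) fell. RPS25, of the small ribosomal subunit, had 1599, 1339 and 1431 CPM against 849 and 819.

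Genes that brake the cycle gave 7 rises (14.3%) and 2 falls of 49 tested in low-cycling cells. The median log2 change was 0.17, while 4.94% of all genes rose. In the remaining cells 17 of 50 rose and 2 fell, with a median of 0.30, while 12.0% of all genes rose there. The difference between the classes passed the test for 0 members, so the rises were not particular to low-cycling cells. The values that follow are of low-cycling cells. CDKN1C, the CDK inhibitor p57, had 28.8, 24.6 and 25.5 CPM at 1 dpi and 48.2 and 106 at 4 dpi (log2 change 1.55 ± 0.26, edgeR adjusted p = 0.00158), a call lost without library 11. BTG1, an antiproliferative gene of resting cells, had 176, 218 and 183 CPM against 355 and 299.8 (log2 change 0.77 ± 0.15, edgeR adjusted p = 0.00339), and both plates of 4 dpi were above those of 1 dpi. YPEL3, DYRK1B and MXD4 rose by 1.21 ± 0.26, 1.37 ± 0.34 and 1.05 ± 0.28 on the log2 scale, and YPEL5 and KLF4 were the other members that rose. MXD1, a MYC antagonist, fell from 129.8, 129 and 117 to 53.4 and 82.5 CPM, a call lost without library 10. CDKN1A, the CDK inhibitor p21, had 38.7, 61.0 and 39.0 CPM against 42.1 and 52.3 (log2 change 0.05 ± 0.24), and CDKN1B, p27, had 133, 103 and 122 against 120.1 and 107 (log2 change -0.08 ± 0.16), and neither change passed the test. CCNG2, a cyclin of arrested cells, was at 18.2, 10.2 and 23.4 CPM against 17.4 and 32.8 in low-cycling cells (edgeR adjusted p = 0.344). The number of rises was 4 without library 8 and 2 without library 11.

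G1 cyclins and CDKs gave 1 rise (7.14%) and 2 falls (14.3%) of 14 tested, beside 4.94% and 4.91% of all genes. CDK4, the kinase of cyclin D, rose from 84.6, 98.9 and 90.5 to 154 and 133 CPM (log2 change 0.65 ± 0.16, edgeR adjusted p = 0.0146), a call lost without library 8 or 10. CDK7, the kinase that activates other CDKs, fell from 113, 142 and 101 to 64.7 and 79.8 CPM, a call lost without library 7, 10 or 11, and CCND1, cyclin D1, was at 373, 265 and 308 against 262 and 351. Cycle genes outside the score are tied to it through the choice of cells and are given as counts and shares only. Of 41 other S-phase genes tested, 1 rose (RFC2, a clamp loader subunit) and 3 fell, with BRIP1, a DNA repair helicase, the farthest. Of 45 other G2 and mitosis genes 3 rose, with MYBL2, a factor of cycle genes, the farthest, and 1 fell (CKS2, a CDK subunit). Of 13 tested histone genes 1 rose (HIST2H2BE) and 2 fell, with HIST1H4C the farthest. In low-cycling cells the rises and falls were 2.44% and 7.32% of these S-phase genes and 6.67% and 2.22% of these G2 and mitosis genes. They were 7.69% and 15.4% of the histone genes, beside 4.94% and 4.91% of all genes. In the remaining cells 55 of 71 tested G2 and mitosis genes rose, beside 12.0% of all genes there.

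Wnt feedback and stem genes moved both ways, with 5 rises (17.2%) and 4 falls (13.8%) of 29 tested and a median log2 change of -0.15, while the rises numbered 3 without library 10 or 11 and the falls 1 without library 8 or 11 and 2 without library 10. Over all genes tested, 4.94% rose and 4.91% fell. PROX1, a transcription factor and Wnt target of colon tumors, had 60.0, 69.0 and 64.5 CPM at 1 dpi and 226 and 159.7 at 4 dpi (log2 change 1.58 ± 0.17, edgeR adjusted p = 2.88e-05). APCDD1, a secreted Wnt inhibitor, had 167, 101 and 116 CPM against 378 and 294, and the stem cell factor ASCL2 had 56.2, 45.5 and 69.7 against 88.3 and 121, with both plates of 4 dpi above those of 1 dpi for these genes. LGR6, a receptor for R-spondins, rose by 1.77 ± 0.48 and SOX4 by 0.78 ± 0.18 on the log2 scale. The call of ASCL2 was lost without library 11 and that of LGR6 without library 7, 8, 10 or 11. EPHB3, a guidance receptor of the crypt base, fell from 78.2, 74.9 and 79.0 to 24.6 and 16.9 CPM (log2 change -1.91 ± 0.23, edgeR adjusted p = 8.35e-05), and TNFRSF19, SOX9 and MYC also fell. The feedback inhibitors AXIN2, at 196, 134 and 204 CPM against 189.9 and 119, and NOTUM, at 415, 319 and 335 against 513 and 362, did not pass the test.

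Among 15 tested genes of the secretory lineage 2 rose and 2 fell (13.3% each), beside 4.94% and 4.91% of all genes. TFF3, the trefoil peptide of goblet cells, fell from 83.5, 96.3 and 121 to 55.4 and 67.4 CPM in low-cycling cells (log2 change -0.70 ± 0.20, edgeR adjusted p = 0.0338), a call lost without library 8, 10 or 11, and with the 20th percentile as the limit of the score the change was 0.027. CHGB, a granin of neuroendocrine cells, rose from 6.83, 7.49 and 7.28 to 19.5 and 24.8 CPM, a call lost without library 11. TFF1, another trefoil peptide, went from 52 UMIs to 2, a ratio of 8.06 (exact 95% interval 2.12 to 68.3), and its call was lost without library 11. Of 20 absorptive and colon epithelial genes 2 rose (10%) and 1 fell (5%), the fall being near the share over all genes. The member that fell was CDH1, E-cadherin, from 56.2, 120.3 and 68.6 to 40.03 and 45.2 CPM, with its call lost without library 7, 8, 10 or 11.

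Keratins, junction and mesenchymal genes gave 3 rises and 9 falls (20.9%) of 43 tested, the falls being between 4 and 9 with a plate left out. TGM2, a protein crosslinking enzyme, went from 105 UMIs to 1, a ratio of 32.6 with an exact 95% interval from 5.72 to 1298, while VIM, CLDN1 and S100A6 rose. Of 29 iron storage, NRF2 and metallothionein genes 6 fell (20.7%) and 1 rose. The riser was FTL, the ferritin light chain, from 722, 1066 and 1084 to 1273 and 1510 CPM (log2 change 0.54 ± 0.16, edgeR adjusted p = 0.0367), with its call lost without library 6, 8 or 11, while FTH1, the heavy chain, stood at 2636, 3500 and 2926 against 2820 and 3517. Hypoxia and glycolysis genes gave 1 rise, the lactate carrier SLC16A3, and 7 falls (17.1%) of 41, while 4.91% of all genes fell. The farthest fall was that of PFKFB3, a regulator of glycolysis, at -1.32 ± 0.32 on the log2 scale. The falls in the hypoxia list were between 2 and 5 with a plate left out, and those in the iron list between 2 and 5.

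The counts in the other lists were small and changed with the plates used. Of 41 genes of the ATF4 amino acid response 4 rose, with SLC7A5, an amino acid carrier, at 98.7, 90.4 and 97.2 CPM against 191 and 184 (log2 change 0.97 ± 0.15, edgeR adjusted p = 0.000785), and 2 fell, with PSAT1, of serine synthesis, the farthest. Of 30 p53 target genes 2 rose, with TP53I3 at 13.3, 16.6 and 10.9 CPM against 41.1 and 39.9, and 4 fell, with the death receptor TNFRSF10B the farthest. Of 36 interferon-stimulated genes 3 rose, with IFIT2 (8 UMIs against 20) the farthest, and 1 fell, TRIM25. Of 23 genes in the MHC class I list 3 rose, among them HLA-C from 226, 265 and 204 to 428 and 407 CPM, though HLA genes can share reads. The farthest was ULBP1, a stress ligand of natural killer cells, at 1.04 ± 0.27 on the log2 scale. Of 23 YAP and TEAD target genes AJUBA alone passed the test, with a rise of 0.61 ± 0.16, and it was not called without library 8, 10 or 11. With a plate left out, the rises numbered 0 (without library 6, 8 or 10) to 5 (without library 7) among interferon-stimulated genes, 2 (without library 8 or 11) to 4 in the ATF4 list and 1 (without library 10 or 11) to 3 in the MHC list, and the falls among p53 target genes 1 (without library 10 or 11) to 4.

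The time effect itself was then compared between low-cycling and remaining cells of the same plates, with the plate as a block. Of 12068 genes tested, 20 had a higher change in low-cycling cells (0.166%) and 28 a lower one (0.232%), and 1195 genes had an unadjusted p under 0.05. Of the 1087 genes called in low-cycling cells, 24 were among these 48. HES1 changed by -3.20 in low-cycling and -3.18 in remaining cells, a difference of -0.03 ± 0.23, and PROX1 by 1.58 and 1.14, a difference of 0.46 ± 0.22. The difference did not pass the test for HES5, HES1, HEYL, PRSS2, VIM, STARD4 or PROX1. The number of genes called was 7 and 8 without library 7, 8 and 10 without library 8, 12 and 31 without library 11, and 2 and 5 with a mitochondrial maximum of 15%.

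Of 41 ATF4 amino acid response genes 4 had a higher change in low-cycling cells and 0 a lower one, while 0.166% of all genes had a higher one. SLC1A4, an amino acid carrier, changed by 0.78 in low-cycling and -0.30 in remaining cells, a difference of 1.08 ± 0.25 (edgeR adjusted p = 0.047), and DDIT4, an inhibitor of mTOR, by -0.60 and -1.68, a difference of 1.07 ± 0.21 (edgeR adjusted p = 0.0183). XBP1 changed by 0.86 and 0.03, a difference of 0.84 ± 0.16 (edgeR adjusted p = 0.0142). MCPH1-AS1, GPC1, FIGNL1 and S100P were among the 5 genes with the largest higher change. GPC1, a cell surface proteoglycan, had 19.7, 31.6 and 56.7 CPM against 26.7 and 74.5 in low-cycling cells and 30.2, 43.1 and 31.4 against 12.5 and 13.2 in remaining cells. S100P, a calcium-binding protein, had 80.1, 132 and 137 against 77.0 and 128 CPM in low-cycling cells and 67.0, 90.2 and 108 against 33.3 and 34.3 in remaining cells.

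Lower changes in low-cycling cells were led by LINC01089, UBE2C, HSPA1A, ASPM and DKK1. UBE2C is a score gene and ASPM a mitotic gene tied to the score through the choice of cells, so their differences are a description. What part the choice of cells has in them was not tested. HSPA1A, the inducible HSP70, had 10.2, 10.7 and 28.6 CPM at 1 dpi and 15.4 and 5.32 at 4 dpi in low-cycling cells, and 10.1, 23.9 and 14.8 against 41.1 and 92.8 in remaining cells. It shares nearly all of its sequence with a neighboring copy, which makes the count uncertain. DKK1, a secreted Wnt inhibitor, had 48.2, 32.6 and 20.3 CPM against 29.8 and 11.5 in low-cycling cells and 35.0, 25.7 and 30.03 against 57.3 and 48.3 in remaining cells. TFF3 changed by -0.70 in low-cycling and 0.45 in remaining cells, a difference of -1.13 ± 0.20 (edgeR adjusted p = 0.0141), though its fall in low-cycling cells turned to 0.027 with the 20th percentile, and TNFAIP3 by -2.13 and -0.97, a difference of -1.17 ± 0.26 (edgeR adjusted p = 0.0456). NFKBIA differed by -0.996 ± 0.21 and HES6 by -1.10 ± 0.23 on the log2 scale, so that the rise of HES6 was smaller in low-cycling cells. MT-ATP6 and MT-CO2 both differed by -0.64 ± 0.13, with changes of -0.10 and -0.06 in remaining cells.

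**Figure D3:**
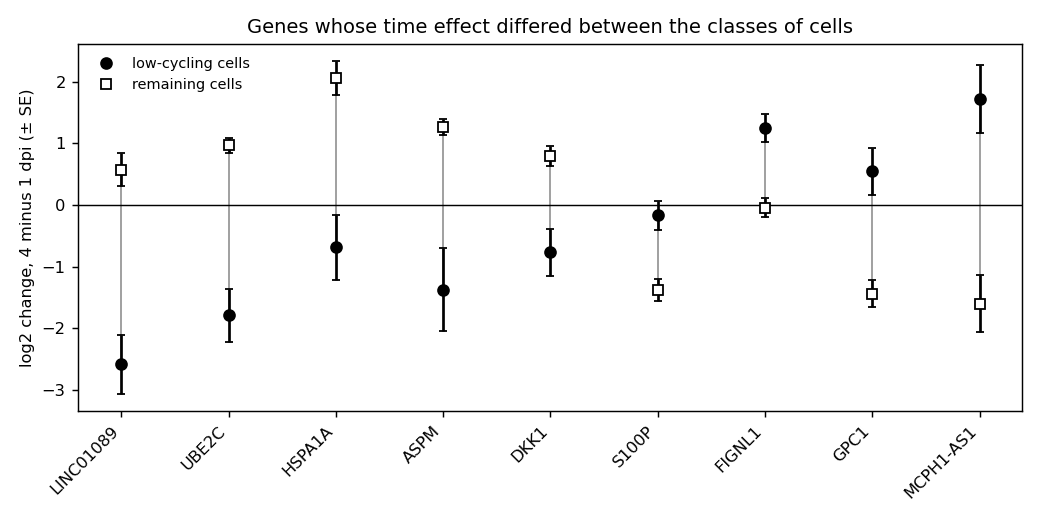
The plot shows the log2 change from 1 to 4 dpi with its standard error for 9 of the 10 genes with the largest called differences of the time effect, 4 higher and 5 lower, with filled circles for low-cycling cells and open squares for remaining cells. LINC01089, UBE2C, HSPA1A, ASPM and DKK1 have the circle below the square, and S100P, FIGNL1, GPC1 and MCPH1-AS1 have it above.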

How the data were processed

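SW480 cells from xenografts of 1 dpi (libraries 6, 7 and 8) and 4 dpi (libraries 10 and 11) were profiled by SORT-seq. Per the labels and the methods of the study, the authors aligned read 2 to the human reference transcriptome with BWA (hg38 in the submitters' processing notes) and deposited raw UMI counts per gene and well, without normalization. The sources used here give no versions. Between 4487175 and 7632951 UMIs of human genes were counted per plate.

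As in the study, a well counted as a cell with over 2000 genes and under 25% of UMIs on mitochondrial genes, with genes listed in all 5 libraries and in at least 10 wells. ERCC rows stayed out of totals. Wells held 1 sorted cell each, and no doublet caller was run. TYMS was listed in 4 libraries, so the score took the genes of any library.

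UMIs were summed per plate and class, since cells that share a plate are no replicates. The sums were tested with edgeR 4.0.16 (R 4.3.3) by its quasi-likelihood test after TMM and filterByExpr, two-sided, with Benjamini-Hochberg adjustment over all genes tested and a threshold of 0.05. The difference between classes was the interaction of class and time with the plate as a block. Standard errors are those of the fit. CPM of genes are TMM-normalized, and summed CPM of lists are not. Shares and medians of plates were compared by exact permutation. The fits were tested on simulated data.

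Members and gene lists were chosen with earlier results of these data known. Genes named are the 8 largest rises and 8 largest falls among called genes with plates that do not overlap and a mean of at least 20 CPM at the higher time point (clone names, pseudogenes and read-through names left out), the called member of each list with the largest rise and fall, a list of HES, HEY, NOTCH, cycle, Wnt and epithelial genes taken whatever their values, and the 5 largest called differences in each direction. KRT20 of that list did not pass the filters. A few named genes are not reported here. Other members of lists were named after their values were seen.

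Alternatives were DESeq2 1.42.0, DESeq2 size factors, the flow cell as a term, all genes without the low-count filter, other percentiles, the 40th percentile within each plate, a longer score, a score or sums from cells thinned to 5000 UMIs, a mitochondrial maximum of 15%, a minimum of 3000 genes, the genes of any library, and each plate left out. Promoters are from RefSeq (GRCh38.p14).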

Additional observations from a re-analysis of the deposited data

Results flagged for a closer look

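The groups of 3 and 2 plates are too small to single out a plate as far from the others. Between low-cycling and remaining cells of the same plates, the log2 change from 1 to 4 dpi differed by the test of the interaction (edgeR, plate as a block) in 48 genes, and 9 of the 10 largest, 4 higher and 5 lower, are given here as values with no explanation. Higher in low-cycling cells were MCPH1-AS1 by 3.24, GPC1 by 1.98, FIGNL1 by 1.31 and S100P by 1.21. Lower were LINC01089 by -3.18, UBE2C by -2.75, HSPA1A by -2.67, ASPM by -2.65 and DKK1 by -1.54, of which UBE2C belongs to the score and ASPM is a mitotic gene. FIGNL1, which encodes an ATPase of DNA repair, rose by 1.25 on the log2 scale in low-cycling cells and changed by -0.04 in the remaining cells. LINC01089, a long non-coding RNA, had 16.7, 18.2 and 17.7 CPM at 1 dpi and 3.08 and 2.66 at 4 dpi in low-cycling cells, and 8.64, 14.4 and 11.3 against 13.8 and 19.99 in the remaining cells. MCPH1-AS1 is antisense to a gene whose reads it may share. With a plate left out, the call was lost for MCPH1-AS1 without library 6, 7, 8 or 11, for DKK1 without library 6, 7 or 11, for GPC1 and FIGNL1 without library 7 or 11, for HSPA1A without library 8 or 11, for ASPM without library 7 or 10, and for S100P and LINC01089 without library 11.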

How the results depend on the processing

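Against 545 rises and 542 falls in low-cycling cells, DESeq2 gave 258 and 296, the 20th percentile 93 and 62, the 30th percentile 300 and 254, and cells thinned to 5000 UMIs 151 and 157. With a plate left out, rises were between 156 and 473 and falls between 206 and 432. Against 20 higher and 28 lower differences of the time effect, higher ones were 10 with DESeq2, 9 with thinned cells and 43 with the 40th percentile within each plate. No filter on low counts gave 44 and 69, the 20th percentile 4 and 2, a score from thinned cells 7 and 10, and a mitochondrial maximum of 15% 2 and 5. Lower ones were 51 with the percentile within each plate and 10 with the 30th percentile. With a plate left out, higher differences were between 7 and 29 and lower ones between 8 and 34. The other settings moved these counts by less than 1.5 times, and the cause of the moves was not tested, except that lower percentiles, thinning and left-out plates hold fewer UMIs. The share of low-cycling cells was lower and their median UMIs were lower at 4 dpi under each setting run for them. The change of the median mitochondrial share reversed to 1.01 with the 20th percentile, and that of the ERCC share to -0.13 without library 11, with a range up to 1.08 over the left-out plates. TFF3 reversed to 0.027 with the 20th percentile and the difference of MCPH1-AS1 to -0.92 with a score from thinned cells. Of 1510 values of named genes under the alternatives, 1229 counted as unchanged and 274 kept the direction and missed the threshold. Another 5 newly passed it (all HES4) and 2 called changes reversed. For genes not called, unchanged means that the threshold was missed again, and the sign of a change near 0 could differ. CDKN1A, for example, had 42.1 CPM on library 10 and 52.3 on library 11, on both sides of its mean of 46.2 at 1 dpi. No paired analysis was possible because the plates of the time points share no replicate numbers, and with the flow cell as a term 489 genes rose and 495 fell. Depth limits low-cycling cells at 4 dpi most, where 87 cells gave 2047793 UMIs on the genes kept.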
